A study of Mus musculus with 6 samples.

Results

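The 10 genes described here encode proteins that neutrophils make late in their maturation: the secondary and tertiary granule proteins Ltf, Camp, Ngp, Lcn2, Mmp8 and Mmp9, the surface protein Cd177, the cytosolic S100a8 and S100a9, and the secreted Retnlg. They were chosen by symbol from the 34745 genes of the count table, each symbol matched 1 row, and all 10 passed the filter on low counts. RNA was sequenced from monocytic myeloid-derived suppressor cells (M-MDSCs), a population of immature myeloid cells that suppresses T cells. The study asked how the loss of the kinase mTOR changes these cells. M-MDSCs were obtained from mouse bone marrow, in 3 libraries from WT mice and 3 from Lyz-mTOR mice. In Lyz-mTOR mice a floxed mTOR gene is deleted by Cre under the lysozyme (Lyz2) promoter. The study's methods describe bone marrow cultures with GM-CSF and IL-6 followed by cell sorting. The labels call the cells fresh after sorting, while the series calls them induced. The methods give no age of the mice for the sequenced cells and no strain for the Lyz-mTOR mice. The WT mice were purchased C57BL/6 mice, not stated to carry Cre or the floxed allele. Whether the groups share a genetic background was not tested. The Lyz2 promoter is active in monocytes, macrophages and neutrophils, so the deletion is not limited to M-MDSCs.

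Neutrophil precursors fill their granules in sequence. Primary granules with Mpo and Elane come first, secondary granules with Ltf, Camp, Ngp and Lcn2 follow under the control of the transcription factor C/EBPε, and tertiary granules with Mmp9 come last. S100a8 and S100a9 pair to form calprotectin, which is abundant in the cytosol of neutrophils and is also made by monocytes. M-MDSCs are defined as CD11b+ cells that are high for Ly6C and lack the neutrophil surface protein Ly6G. Such a gate is meant to leave out neutrophils, by whose late maturation these genes were grouped. At least S100a8 and S100a9 are not limited to that lineage.

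The promoters of Ltf and Ngp, which were lower in the mTOR-/- libraries, and of the calprotectin pair S100a8 and S100a9 are shown. Of that pair only S100a8 had an edgeR adjusted p below 0.05, at less than 2-fold. The sequences can be set against these differences. Each run is given 5′ to 3′ on the gene's strand and stops before the first base of the gene as deposited. Capitals mark matches to the C/EBP motif TTGCNNAA or to the PU.1 motif GAGGAA on either strand (RefSeq, GRCm38.p6).
Ltf, + strand, chr9:111019042-111019270: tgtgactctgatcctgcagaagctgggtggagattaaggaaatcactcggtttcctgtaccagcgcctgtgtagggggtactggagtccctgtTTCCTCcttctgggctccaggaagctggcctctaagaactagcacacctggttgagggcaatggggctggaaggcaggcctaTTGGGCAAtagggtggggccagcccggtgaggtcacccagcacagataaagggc
Ngp, + strand, chr9:110419558-110419746: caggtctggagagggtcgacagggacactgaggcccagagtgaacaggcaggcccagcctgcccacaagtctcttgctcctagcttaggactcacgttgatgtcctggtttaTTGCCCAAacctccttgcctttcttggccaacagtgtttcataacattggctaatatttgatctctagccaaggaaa
S100a8, + strand, chr3:90668821-90668977: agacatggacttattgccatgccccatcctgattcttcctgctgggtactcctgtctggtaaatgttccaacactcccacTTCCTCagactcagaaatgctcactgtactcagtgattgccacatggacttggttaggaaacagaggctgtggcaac
S100a9, - strand, chr3:90695722-90695971: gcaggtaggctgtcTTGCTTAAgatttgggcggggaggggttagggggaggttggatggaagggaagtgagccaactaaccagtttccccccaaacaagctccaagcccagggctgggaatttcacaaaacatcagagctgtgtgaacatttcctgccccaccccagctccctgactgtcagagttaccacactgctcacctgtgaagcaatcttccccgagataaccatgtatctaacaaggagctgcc
Of the 10 genes, 9 had a promoter in the RefSeq table, Mmp9 being the exception. In windows of 300 bases, from 250 before to 50 after the start site, 6 of the 9 held the C/EBP motif, against 10.8% of all 32851 promoters. The PU.1 motif was held by 5 of the 9, against 28.3% of all promoters. The C/EBP matches of Ltf, Ngp and S100a9 are the runs TTGGGCAA, TTGCCCAA and TTGCTTAA above, and Ngp and S100a8 each held 1 more match, of C/EBP and PU.1 respectively, between the printed run and the RefSeq start site. Genes with the C/EBP motif included Ltf and Ngp as well as Lcn2 and S100a9, whose edgeR adjusted p was above 0.05. A match describes letters, not binding.

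Total counts were 12317507 to 12903191 in the mTOR-/- libraries and 14066578 to 14768126 in the WT libraries. Mtor itself did not separate the groups over the whole gene (log2 fold change 0.15, edgeR adjusted p = 0.442), so directions rest on the labels, and mTOR-/- means the libraries labelled so. Lyz2, whose promoter drives Cre, was lower in the mTOR-/- libraries (log2 fold change -1.68, edgeR adjusted p = 0.00255). The paper genotyped its mice for a WT and a mutant Lyz allele, and the part of the Cre allele in this difference was not tested. Library correlations of log2 CPM were 0.978 to 0.981 within WT and 0.952 to 0.973 within mTOR-/-, where mTOR-/- replicate 3 stood apart from the others. mTOR-/- replicates 1 and 2 correlated with mTOR-/- replicate 3 at 0.955 and 0.952, below their 0.957 to 0.966 with the WT libraries. mTOR-/- replicate 3 correlated with the WT libraries at 0.934 to 0.941 and had the fewest genes with counts, 13889. Of the 13 rows of monocyte markers, 12 passed the filter, and Cx3cr1 had at most 4 counts in any library. Of the T cell markers, Cd3e, Cd4 and Cd8a had 0 counts in every library. The series gives n = 3 but ties no library to a mouse or culture, so p-values measure the spread between these libraries, which may be technical.

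The late neutrophil genes did not all move one way. Ltf fell 4.11-fold, Ngp was lower and S100a8 higher by smaller amounts, and the other 7 genes had an adjusted p above 0.05. A gene was called where edgeR's quasi-likelihood test gave it an adjusted p below 0.05, over 12537 tested genes, and it differed at least 2-fold. On that rule 1 of the 10 was called, against 1.69% of all tested genes. The adjusted p alone was passed by 3 of the 10, against 4.04% of all tested genes: 1 was higher, against 2.18%, and 2 were lower, against 1.87%. In CPM (counts scaled to a common library size with TMM factors), 6 of the 10 had no overlap between groups, against 28.4% of all tested genes. Of these, 3 were higher, against 14.5%, and 3 lower, against 13.9%. The median log2 fold change of the 10 was 0.11, beside 0.00 over all tested genes, and the median of their absolute values was 0.57, beside 0.22. In RNA from whole populations, fewer cells of a type and less RNA per cell cannot be told apart.

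**Figure D1:**
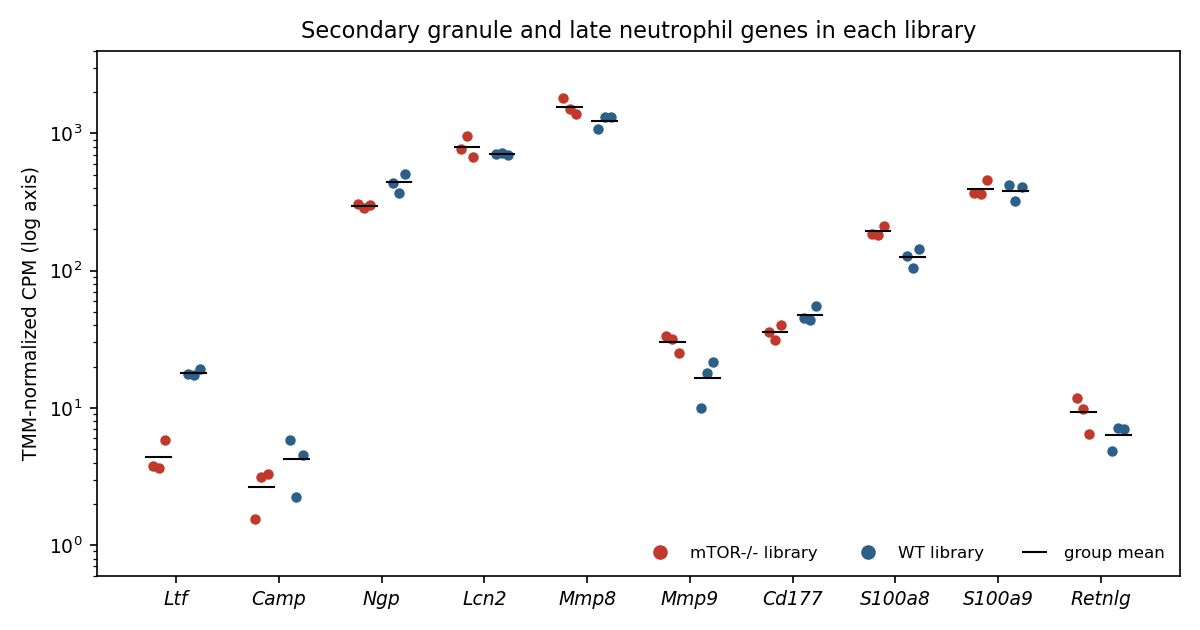
CPM (log axis) of the 10 genes, with a point for each library and a line for the group mean (n = 3 per group). The 3 mTOR-/- points of Ltf lie between 3.63 and 5.81 CPM, all below the WT points at 17.3 to 19.3 CPM, while the points of Lcn2, Camp, S100a9 and Retnlg overlap between groups.

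Ltf (ENSMUSG00000032496, mm10 chromosome 9, 111019271 to 111042767) encodes lactoferrin, the iron-binding protein by which secondary granules are commonly recognised. Replicates 1 to 3 gave 46, 47 and 76 counts in mTOR-/- against 250, 253 and 271 in WT M-MDSCs. The groups did not overlap, and the highest mTOR-/- library was replicate 3. Its level was 4.40 ± 1.23 CPM (SD, n = 3) in mTOR-/- and 18.1 ± 1.05 CPM (SD, n = 3) in WT M-MDSCs, 4.11-fold lower. On the log2 scale the difference was -2.04 ± 0.23 (SE, edgeR adjusted p = 0.00214), and the call was kept in all 6 fits that each left out 1 library (adjusted p between 0.000958 and 0.0151).

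Ngp (ENSMUSG00000032484, chromosome 9, 110419747 to 110423012) encodes neutrophilic granule protein, a relative of the cathelicidins, and lies 596 kb from Ltf. The libraries gave 3744, 3712 and 3941 counts in mTOR-/- against 6153, 5423 and 7162 in WT M-MDSCs. Every mTOR-/- library was below every WT library, at 298 ± 9.84 CPM against 439 ± 69.9 CPM (SD, n = 3 each). In log2 terms the groups differed by -0.56 ± 0.12 (SE, edgeR adjusted p = 0.0343), short of 2-fold. It passed the adjusted p without mTOR-/- replicate 3 (0.0486) and without WT replicate 2 (0.0312). Without mTOR-/- replicate 1 it was 0.0873, without mTOR-/- replicate 2 it was 0.0667, without WT replicate 1 it was 0.112, and without WT replicate 3 it was 0.15.

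Camp (ENSMUSG00000038357, chromosome 9, 109847379 to 109849617) encodes the cathelicidin, an antimicrobial peptide precursor of the same granules. It was scarce, with 19, 41 and 43 counts across mTOR-/- replicates 1 to 3 and 82, 33 and 64 across WT replicates 1 to 3. The groups overlapped, since WT replicate 2 was below mTOR-/- replicates 2 and 3 in CPM. The log2 fold change was -0.65 (95% interval -1.71 to 0.40, edgeR adjusted p = 0.456), an interval that includes both 0 and the difference seen in Ngp. The coefficient of variation between libraries was 36.4% in mTOR-/- and 43.0% in WT M-MDSCs.

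Lcn2 (ENSMUSG00000026822, chromosome 2, 32384633 to 32388252) encodes lipocalin 2, which withholds iron from bacteria by binding their siderophores. Replicates 1 to 3 gave 9419, 12433 and 8772 counts in mTOR-/- against 10006, 10611 and 9714 in WT M-MDSCs. Scaled to the library, the mTOR-/- libraries held both the lowest value, 671 CPM in replicate 3, and the highest, 960 CPM in replicate 2, with the WT libraries at 692 to 725 CPM between them. On the log2 scale the difference was 0.17 (95% interval -0.12 to 0.47, edgeR adjusted p = 0.480). Lcn2 and Ltf are both stored in secondary granules. The ratio of Ltf to Lcn2 in FPKM (the authors' unit, scaled to gene length and library size) was 0.00428, 0.00331 and 0.00759 in mTOR-/- against 0.0219, 0.0209 and 0.0244 in WT M-MDSCs.

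Mmp8 (ENSMUSG00000005800, chromosome 9, 7558429 to 7568486) encodes neutrophil collagenase and had the most counts of the 10 genes. The libraries gave 22062, 19474 and 18231 counts in mTOR-/- against 15168, 19333 and 18452 in WT M-MDSCs. The mTOR-/- libraries were higher in CPM without overlap, at 1565 ± 209 against 1238 ± 138 CPM (SD, n = 3 each). In log2 terms the groups differed by 0.34 (95% interval 0.05 to 0.63), with an adjusted p of 0.180 (edgeR) that missed the threshold.

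Mmp9 (ENSMUSG00000017737, chromosome 2, 164940780 to 164955850) encodes gelatinase B, the enzyme of tertiary granules. Replicates 1 to 3 gave 411, 415 and 330 counts in mTOR-/- against 140, 263 and 303 in WT M-MDSCs. The groups did not overlap in CPM, and WT replicate 1 was the lowest library. The log2 fold change was 0.87 (95% interval 0.29 to 1.46), the largest above 0 among the 10, with an adjusted p of 0.1 (edgeR). DESeq2's Wald test gave an adjusted p of 0.0203.

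Cd177 (ENSMUSG00000052212, chromosome 7, 24743983 to 24760311) encodes a surface protein of neutrophils that is also stored in secondary granules. The libraries gave 441, 403 and 529 counts in mTOR-/- against 634, 641 and 770 in WT M-MDSCs. All mTOR-/- libraries were below all WT libraries, at 35.8 ± 4.68 against 47.9 ± 6.05 CPM (SD, n = 3 each). On the log2 scale the difference was -0.42 (95% interval -0.75 to -0.09), with an adjusted p of 0.149 (edgeR) that missed the threshold.

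**Figure D2:**
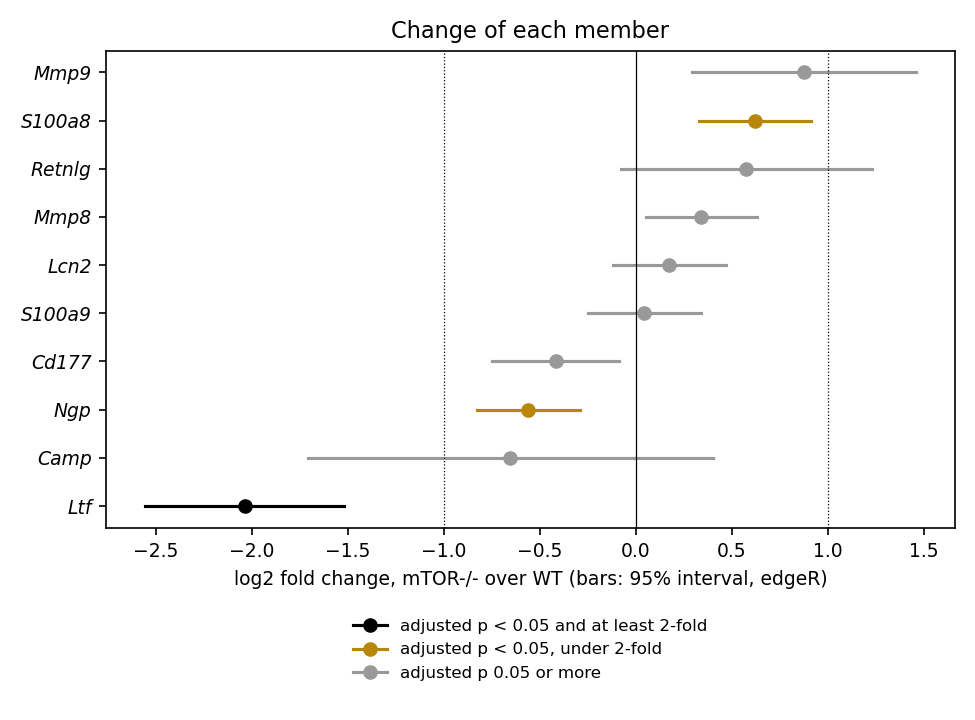
Log2 fold change of each gene, mTOR-/- over WT, with bars for the 95% interval from edgeR and dotted lines at a 2-fold change. Ltf at -2.04 is the point past a dotted line with an adjusted p under 0.05, Ngp at -0.56 and S100a8 at 0.62 pass the adjusted p inside the lines, and the other 7 do not pass it.

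S100a8 (ENSMUSG00000056054, chromosome 3, 90668978 to 90670035) and S100a9 (ENSMUSG00000056071, chromosome 3, 90692632 to 90695721) lie 22.6 kb apart and encode the subunits of calprotectin. S100a8 had 2265, 2373 and 2772 counts across mTOR-/- replicates 1 to 3 and 1797, 1538 and 2032 across WT replicates 1 to 3. It was higher in mTOR-/- without overlap, at 193 ± 16.3 against 126 ± 19.9 CPM (SD, n = 3 each). In log2 terms the groups differed by 0.62 ± 0.13 (SE, edgeR adjusted p = 0.0305), short of 2-fold. The adjusted p was 0.0736 without mTOR-/- replicate 1, 0.0605 without mTOR-/- replicate 3, 0.112 without WT replicate 1 and 0.0943 without WT replicate 2.

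S100a9 had 4511, 4696 and 5949 counts across mTOR-/- replicates 1 to 3 and 5894, 4747 and 5709 across WT replicates 1 to 3. The groups overlapped, with WT replicate 2 lowest and mTOR-/- replicate 3 highest in CPM. The log2 fold change was 0.04 (95% interval -0.25 to 0.34, edgeR adjusted p = 0.881). The ratio of S100a8 to S100a9 in FPKM was 0.371, 0.374 and 0.345 in mTOR-/- against 0.226, 0.240 and 0.263 in WT M-MDSCs. Means were 0.363 ± 0.0162 and 0.243 ± 0.0191 (SD, n = 3 each), and every mTOR-/- ratio was above every WT ratio (exact permutation test on the log2 ratios, two-sided, p = 0.1, which misses 0.05 and is the lower limit for 3 against 3).

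Retnlg (ENSMUSG00000022651, chromosome 16, 48872608 to 48874498) encodes a resistin-like protein secreted by myeloid cells. Replicates 1 to 3 gave 146, 128 and 84 counts in mTOR-/- against 68, 104 and 98 in WT M-MDSCs. mTOR-/- replicate 3, at 6.43 CPM, was inside the WT range of 4.83 to 7.10 CPM, and the other mTOR-/- libraries were above it. On the log2 scale the difference was 0.57 (95% interval -0.08 to 1.23, edgeR adjusted p = 0.291).

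**Figure D3:**
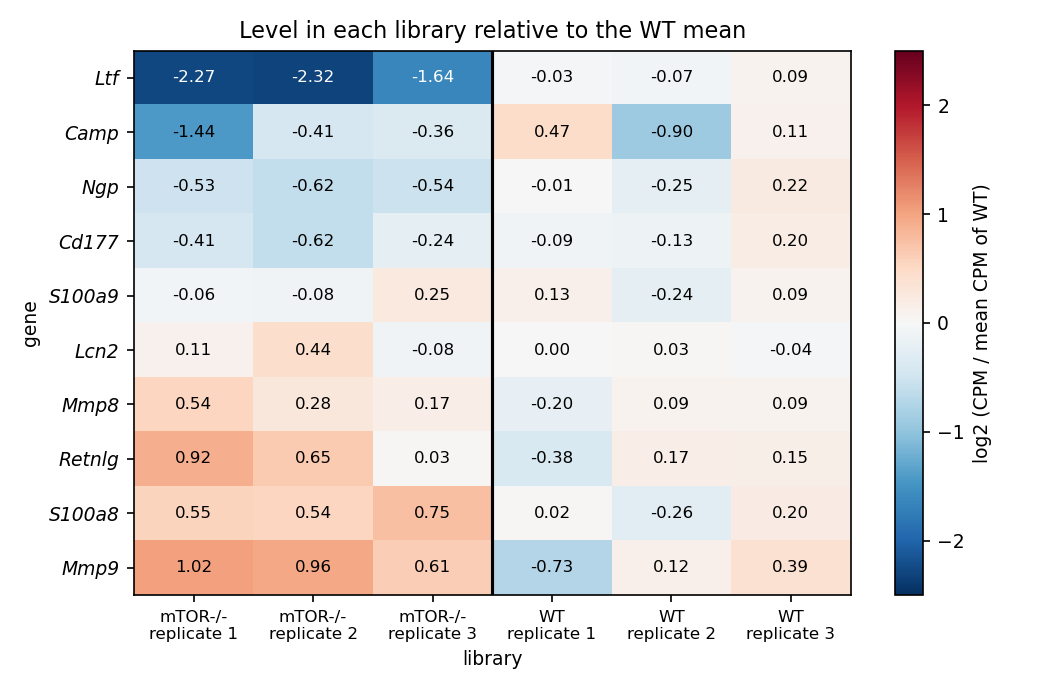
Log2 of the CPM of each gene in each library over the mean CPM of the WT libraries, with genes ordered by fold change. Ltf stands at -2.27, -2.32 and -1.64 in the mTOR-/- libraries, and Lcn2 and Retnlg show mTOR-/- replicate 3, at -0.08 and 0.03, closer to the WT mean than mTOR-/- replicate 2, at 0.44 and 0.65.

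mTOR-/- replicate 3 was the highest of the mTOR-/- libraries for 5 of the 10 genes, the lowest for 4 and between the others for 1. It was highest for Ltf, Camp, Cd177, S100a8 and S100a9 and lowest for Lcn2, Mmp8, Mmp9 and Retnlg, and without it the log2 fold change of Ltf was -2.30. With any 1 library left out, 9 of the 10 genes kept the sign of their log2 fold change. The sign of S100a9 turned, to -0.08 without mTOR-/- replicate 3 and to -0.07 without WT replicate 2.

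Per length, Ngp kept rank 3 and Ltf rank 10 among the 10 genes in both groups. The other genes traded adjacent places: S100a9 with Mmp8, Lcn2 with S100a8, Cd177 with Retnlg and Camp with Mmp9. Cd177 and Retnlg did not overlap in WT M-MDSCs, nor did Camp and Mmp9 in mTOR-/- M-MDSCs. In WT M-MDSCs S100a9 at 523 ± 71.2 FPKM and Mmp8 at 500 ± 52.8 FPKM led and overlapped each other, followed by Ngp at 357 ± 55.4 FPKM. Lcn2 at 145 ± 4.0 and S100a8 at 127 ± 19.7 FPKM overlapped, as did Camp at 5.52 ± 2.40, Mmp9 at 4.14 ± 1.47 and Ltf at 3.24 ± 0.173 FPKM at the lower end, with Cd177 at 15.4 ± 1.85 and Retnlg at 10.3 ± 2.02 FPKM between them (SD, n = 3 throughout). In mTOR-/- M-MDSCs Mmp8 at 641 ± 79.7 FPKM and S100a9 at 546 ± 75.4 FPKM again overlapped at the top, then came Ngp at 245 ± 7.43 FPKM. S100a8 at 198 ± 17.9 and Lcn2 at 165 ± 30.4 FPKM overlapped there, and so did Retnlg at 15.5 ± 4.46 and Cd177 at 11.7 ± 1.56 FPKM. Mmp9 at 7.71 ± 1.07, Camp at 3.55 ± 1.31 and Ltf at 0.797 ± 0.228 FPKM did not overlap at the lower end (SD, n = 3). Both groups thus held abundant Mmp8 and Ngp beside scarce Ltf and Camp, although all encode secondary granule proteins.

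The 10 genes took 0.316% to 0.350% of the counts in the mTOR-/- libraries and 0.286% to 0.313% in the WT libraries. Summed over the 10, the level was 3510, 3375 and 3115 CPM across mTOR-/- replicates 1 to 3 and 2857, 2934 and 3175 CPM across WT replicates 1 to 3. The sums, scaled with TMM factors, overlapped, since WT replicate 3 was above mTOR-/- replicate 3. The shares of total counts did not overlap. Mmp8 alone was 44.5% to 51.2% of these counts in the mTOR-/- libraries and 37.7% to 45.0% in the WT libraries. Without Mmp8 and Lcn2 the sum was 912 to 1050.0 CPM in the mTOR-/- libraries, within the WT range of 888 to 1169 CPM.

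Ratios were also taken between the collagenase and the gelatinase and between the cathelicidin and its relative. All 4 ratios were chosen after the values were seen. Mmp8 to Mmp9 in FPKM was 83.5 ± 7.11 in mTOR-/- and 130 ± 39.5 in WT M-MDSCs (SD, n = 3), without overlap, and WT replicate 1 at 174 was the highest. Camp to Ngp was 0.0145 ± 0.00550 in mTOR-/- and 0.0152 ± 0.00588 in WT M-MDSCs (SD, n = 3), with the groups overlapping. Over the 4 ratios, the Benjamini-Hochberg adjusted value of the exact permutation test was 0.133 for S100a8 to S100a9, Mmp8 to Mmp9 and Ltf to Lcn2, and 1 for Camp to Ngp.

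**Figure D4:**
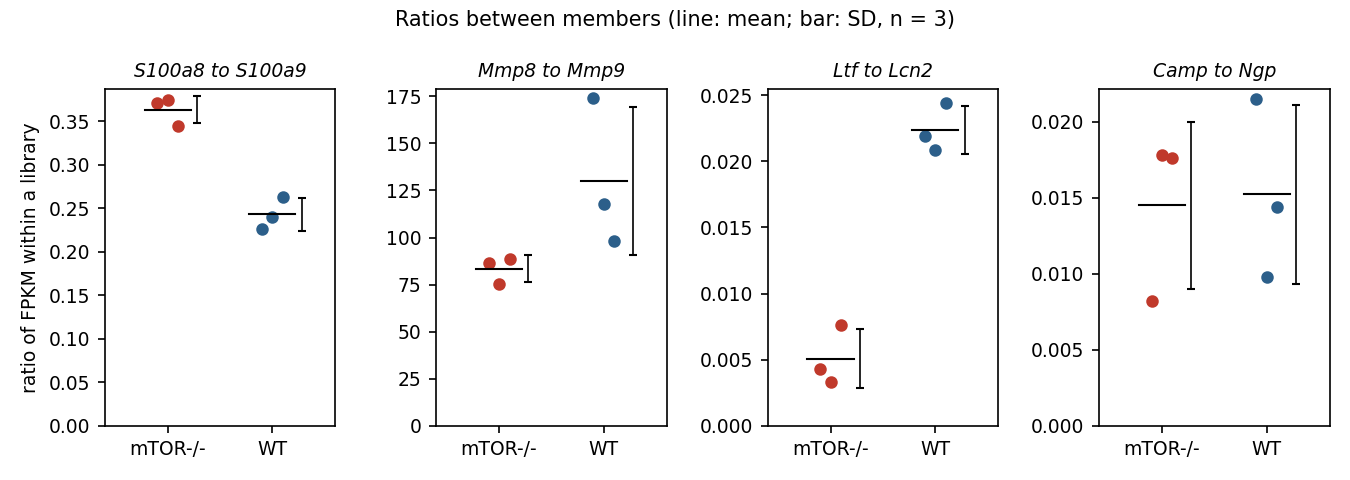
Ratios of FPKM between pairs of genes within each library, with a point for each library, a line for the mean and a bar for the SD (n = 3 per group). S100a8 to S100a9 lies between 0.345 and 0.374 in the mTOR-/- libraries and between 0.226 and 0.263 in the WT libraries, and Camp to Ngp overlaps between the groups.

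Other genes of late neutrophil maturation were mixed in the same way. Of 30 on the list, 28 were tested, of which 16 had a log2 fold change above 0 and 12 below, with a median log2 fold change of 0.09. Calls went 1 up and 2 down, against backgrounds of 1.04% and 0.654% of all tested genes. Ly6g, the surface protein that the definition of M-MDSCs excludes, was the gene called up. It had 173, 139 and 198 counts in mTOR-/- against 12, 35 and 71 in WT M-MDSCs, without overlap, a log2 fold change of 2.26 ± 0.49 (SE, edgeR adjusted p = 0.0365). It belongs to the Ly6 family, among whose related genes counting can split reads. Its adjusted p was 0.0186 without WT replicate 3, and 0.0548 to 0.127 when any other library was left out, which ended the call.

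The genes called down were Hdc, the enzyme that makes histamine, and Itgb2l, an integrin chain of neutrophils. Hdc was at 110 ± 3.14 CPM in mTOR-/- and 276 ± 9.23 CPM in WT M-MDSCs (SD, n = 3), a log2 fold change of -1.33 (edgeR adjusted p = 0.000101) kept in all 6 fits that left out 1 library. Hdc is also made by mast cells and basophils. Itgb2l was at 3.11 ± 0.586 against 8.34 ± 2.65 CPM (SD, n = 3), a log2 fold change of -1.42 (edgeR adjusted p = 0.0477), and its call ended whichever library was left out (adjusted p 0.0553 to 0.221). Past the adjusted p but under 2-fold were Chil3, a chitinase-like protein of myeloid cells, at 1018 ± 85.4 against 719 ± 45.2 CPM, Csf3r, the G-CSF receptor, at 216 ± 40.3 against 140 ± 7.17 CPM, and BC100530, of the stefin A cluster whose near-identical members can share reads, at 48.3 ± 7.20 against 27.9 ± 0.377 CPM (SD, n = 3, mTOR-/- against WT). Csf3r and BC100530 were named after their values were seen. With each library left out, Chil3 kept an adjusted p under 0.05 only without mTOR-/- replicate 3 (0.00825 to 0.15 over the 6 fits). Csf3r (0.0239 to 0.144) and BC100530 (0.0209 to 0.0838) kept it when an mTOR-/- library was left out and lost it when a WT library was. Among the most abundant of the list, Adam8, a membrane protease, had a log2 fold change of 0.17 (edgeR adjusted p = 0.495) and Slpi, an inhibitor of neutrophil elastase, one of -0.49 (edgeR adjusted p = 0.117).

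Primary granule genes, which precede the secondary ones in maturation, gave 1 call among 7 tested, against 1.69% of all tested genes. Their median log2 fold change was -0.38. Ctsg, the granule protease cathepsin G, was at 27.2 ± 9.09 CPM in mTOR-/- and 71.1 ± 15.6 CPM in WT M-MDSCs (SD, n = 3). Its log2 fold change was -1.39 ± 0.26 (SE, edgeR adjusted p = 0.0207), and the call ended without WT replicate 1 (adjusted p = 0.0853) and without WT replicate 3 (0.0926). Ctsc, which activates these proteases, Prtn3 and Elane had log2 fold changes of 0.16, 0.21 and 0.39 (adjusted p = 0.492, 0.620 and 0.489, edgeR).

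None of 12 regulators of granulocyte differentiation was called by edgeR or by DESeq2 with the 2-fold threshold. An unadjusted edgeR p under 0.05 was reached by 4 of the 12, against 21.2% of all tested genes. Their log2 fold changes ran from -0.68 to 0.60 with a median of -0.12. Cebpe, the factor on which secondary granule genes depend, was named for that role with its values known. Its libraries held 555, 499 and 611 counts in mTOR-/- against 896, 714 and 1007 in WT M-MDSCs, without overlap, and a log2 fold change of -0.50 ± 0.16 (SE, edgeR adjusted p = 0.119). DESeq2 gave adjusted p-values under 0.05 for Cebpe (0.0495) and, in the other direction, for Cebpd, another C/EBP factor (log2 fold change 0.60, DESeq2 adjusted p = 0.0418, edgeR adjusted p = 0.084). The most abundant regulators were Spi1, which encodes PU.1, Stat3, which acts downstream of the G-CSF receptor, and Cebpb. Their log2 fold changes were -0.06, 0.14 and -0.31 (adjusted p = 0.773, 0.414 and 0.228, edgeR).

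Receptors, inhibitors and partners of the proteins encoded by the 10 genes gave 16 tested rows. Of these 1 was called, against 1.69% of all tested genes. Fpr2, a formyl peptide receptor through which cathelicidin peptides act, had 450, 296 and 438 counts in mTOR-/- against 92, 158 and 160 in WT M-MDSCs. The groups did not overlap, and the log2 fold change was 1.69 ± 0.25 (SE, edgeR adjusted p = 0.00761), called in all 6 fits that left out 1 library. Below 2-fold but past the adjusted p were Lrp1, a receptor that takes up lactoferrin, at 349 ± 50.4 against 528 ± 11.4 CPM, and Pecam1, a binding partner of Cd177, at 137 ± 24.0 against 215 ± 10.9 CPM (SD, n = 3, mTOR-/- against WT). Both were named after their values were seen. The adjusted p of Lrp1 rose above 0.05 when any WT library was left out (up to 0.113), and that of Pecam1 when any WT library or mTOR-/- replicate 1 was (up to 0.11). Itgb2, the beta chain of Mac-1, had a log2 fold change of 0.01 (edgeR adjusted p = 0.971), and Itgam, which encodes its partner CD11b, was listed in 2 overlapping entries at -0.16 and 0.01 (adjusted p = 0.599 and 0.995). Cap1, a receptor for resistin, was among the most abundant (log2 fold change -0.07, edgeR adjusted p = 0.825).

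**Figure D5:**
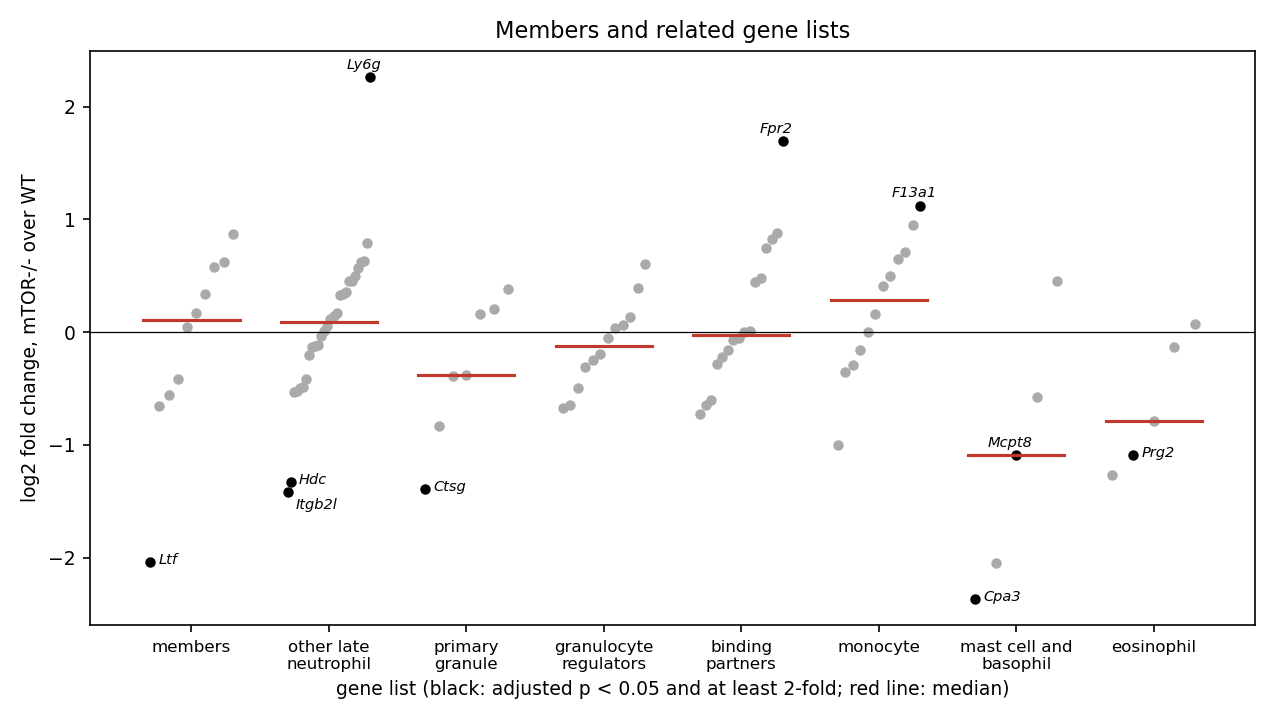
Log2 fold change, mTOR-/- over WT, of every tested gene of the 10 described here and of 7 related lists, with called genes in black and the list median as a red line. The medians are 0.11 for the 10 genes and 0.09 for other late neutrophil genes, while mast cell and basophil markers have a median of -1.09 and eosinophil markers one of -0.78.

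Most markers of other granulocytes had a log2 fold change below 0. Of the 10 tested, 3 were called down, against 0.654% of all tested genes, and none up. Of the 6 mast cell and basophil markers, 5 were tested, 4 had a log2 fold change below 0 and 2, Cpa3 and Mcpt8, were called down. The call of Cpa3 was kept whichever library was left out, and that of Mcpt8 only without mTOR-/- replicate 2 and without WT replicate 2 (adjusted p 0.0242 to 0.152 over the 6 fits). Their summed level was 148 to 208 CPM in mTOR-/- against 706 to 881 CPM in WT M-MDSCs, with the mast cell protease Mcpt4 at 0 in every library. Most of that sum was Cpa3, at 135 ± 21.8 against 694 ± 69.7 CPM, while Mcpt8 was at 17.5 ± 4.69 against 37.3 ± 8.94 CPM and Fcer1a at 3.86 ± 1.38 against 2.82 ± 1.32 CPM (SD, n = 3, mTOR-/- against WT). Of the 6 eosinophil markers, 5 were tested, 4 had a log2 fold change below 0 and Prg2 was called down. The call of Prg2 ended without mTOR-/- replicate 2, at a log2 fold change of -0.97. Eosinophil markers summed to 52.7 to 75.5 against 109 to 130 CPM. The summed level of the 8 erythroid markers was 2.47 to 3.82 against 6.68 to 11.9 CPM, that of the 6 B cell markers 3.32 to 6.93 against 2.27 to 3.92 CPM, and that of the 6 T cell markers at most 0.570 CPM in any library. The monocyte markers had a median log2 fold change of 0.28, and their sums overlapped at 2880 to 3180 against 2850 to 3150 CPM. At an adjusted p under 0.05, 3 of 12 tested rows were higher, against 2.18% of all tested genes, and 1 lower, against 1.87%. The lower one was Ly6c2, which encodes the Ly6C used to define M-MDSCs, at 87.3 ± 15.95 against 174 ± 55.5 CPM (SD, n = 3, mTOR-/- against WT) without overlap. Its log2 fold change was -1.0 ± 0.23 (SE, edgeR adjusted p = 0.0426), just short of the 2-fold threshold, and its adjusted p was 0.0143 to 0.159 with each library left out, under 0.05 only without mTOR-/- replicate 3 and without WT replicate 2. F13a1 was called up (log2 fold change 1.12, edgeR adjusted p = 0.0223), a call kept only without mTOR-/- replicate 2 and without mTOR-/- replicate 3. Cd14 and Csf1r were higher by less than 2-fold (log2 fold change 0.95 and 0.50, edgeR adjusted p = 0.00128 and 0.0136). The adjusted p of Cd14 stayed under 0.05 in all 6 fits that left out 1 library. That of Csf1r did so in 3 of them (up to 0.0935). The part of these markers in the differences of Ltf, Ngp, Hdc and Ctsg was not tested.

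The mean profile of the 10 genes over the 6 libraries was nearly flat, from -0.074 in mTOR-/- replicate 1 to 0.220 in WT replicate 3 on the log2 CPM scale centred on each gene's mean. This mean averaged genes that moved in opposite directions, such as Ltf at a log2 fold change of -2.04 and Mmp9 at 0.87. Of 4672 other genes with at least 50 CPM, those closest to the mean profile were Capza1, Smc6, Cr1l, Matr3 and Psmb4. Their root-mean-square differences from it were 0.0459 to 0.0544 on the centred scale. A match to the mean is not a match to each of the 10 genes.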

How the data were processed

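RNAseq libraries of WT and mTOR-/- M-MDSCs, 3 per group, were grouped by the titles of the deposited samples. The authors deposited whole-number read counts per gene and FPKM. The paper's methods name Bowtie2, HTSeq and mm10, while the submitters' processing notes name HISAT2 2.0.4, StringTie 1.3.0 and the builds GRCm38.p4 and mm9. Annotation release and strand setting are not given in the sources used here, and no listed gene overlaps any of the 10. Columns of the authors' own comparison (fold changes, p-values) and 24 of 36 per-sample columns, which repeat these in whole or for a subset of genes, were not used.

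The tools were edgeR 4.0.16 and DESeq2 1.42.0 under R 4.3.3. Of 34745 genes, 12537 passed filterByExpr (minimum count 10, minimum total 15). After TMM normalization, edgeR's quasi-likelihood test was fitted without a block, with Benjamini-Hochberg adjustment over all tested genes and the study's thresholds (adjusted p of 0.05, 2-fold). Intervals and standard errors come from that fit. Log2 CPM used a prior count of 2. FPKM served for levels between genes and ratios within a library. The floor of 3 counts was 0.203 to 0.244 CPM and covers counting error only. Library depth is given with the results.

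The genes and lists were chosen with earlier results of these data known. From each list, called genes and the 3 most abundant others are named, and likewise Mtor, Lyz2 and the 5 genes of most similar profile. Promoters are from RefSeq (GRCm38.p6), positions of genes from the deposited table. The method was tested on simulated counts. Alternatives were DESeq2's Wald test, RLE and upper-quartile factors, other filters, no fold threshold, each library left out and the replicate number as a block. Same-numbered libraries did not deviate together (r of deviations -0.076, -0.025 and -0.061).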

Additional observations from a re-analysis of the deposited data

How the results depend on the processing

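The number of the 10 genes called was 1, Ltf, in every alternative run except without a fold threshold, where it was 3. None of their log2 fold changes turned sign except that of S100a9, at -0.08 without mTOR-/- replicate 3 and -0.07 without WT replicate 2, and at most 0.1 with another library left out. Over all genes 212 were called, 357 by DESeq2's Wald test, 507 without a fold threshold, and 114 to 229 with each library left out (128, 114 and 120 without WT replicates 1, 2 and 3). Without a fold threshold, calls were 6 among other late neutrophil genes and 3 among binding partners. With each library left out, calls lay between 1 and 2 among other late neutrophil genes and between 0 and 1 among primary granule genes. The summed level of the 10 was 345 CPM higher in mTOR-/-, 388 CPM without TMM factors, and 257 to 454 CPM with each library left out. With the replicate number as a block, 164 genes were called, Ltf among them (adjusted p = 0.00484), and of the named genes Ngp (0.0689), Itgb2l (0.12), Chil3 (0.124), Csf3r (0.0613), Lrp1 (0.055), Mcpt8 (0.0613) and Csf1r (0.069) passed the adjusted p no longer. The labels do not tie the numbers to mice. The cause of these shifts was not tested.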
